A study of Capra hircus with 20 samples.

Results

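miR-9 is a neural microRNA (miRNA) whose hairpin precursor yields a mature strand from each side, the 5p arm and the 3p arm. Both arms were followed in goat hypothalamus, as 2 rows, chi-miR-9-5p and chi-miR-9-3p, of a table of 683 miRNAs, 407 of them named miRNAs and 276 predictions that carry only a number. Both rows were taken by name.

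A precursor hairpin is cut by Dicer into a short duplex, and whichever strand is loaded into an Argonaute protein accumulates while its partner is mostly degraded. miR-9 is abundant in vertebrate brain, and in mouse and human neural cells its 5p arm represses the transcription factors REST, TLX and HES1, which hold cells in a progenitor or non-neuronal state. The 3p arm, earlier called miR-9*, represses the REST partner CoREST in the same species, so that both strands have known targets. The annotation of the goat genome ARS1.2 from RefSeq listed 1 gene MIR9, with the synonym chi-mir-9, in no protein-coding gene and with POLG and RHCG as its nearest protein-coding neighbours. In mouse and human several loci give the same mature miR-9, and whether each row of the table pools the reads of several goat loci, and so of several hairpins, was not tested. The sources used here do not say which genome build or miRNA catalogue the authors counted against.

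The samples were whole hypothalamus of Jining grey goats, an early-maturing Chinese breed, aged 1, 60, 120 or 180 days, with 5 biological replicates at each age and 20 libraries in all. The series asked how hypothalamic miRNA profiles change during sexual development, and the labels name no treatment, no genetic alteration, no sex and no batch. Because the tissue was not separated into cell types, fewer cells of a type and less miRNA per cell cannot be told apart.

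Depth ran between 4018002 and 8324928 miRNA reads per library, and the authors' values are reads per 1000000 miRNA reads of a library (RPM). A count of 3 reads, taken as the floor, was worth 0.360 to 0.747 RPM, far below either arm. The 7 rows of the neuronal marker list (miR-124, miR-128, miR-129, miR-137, miR-138 and miR-218; no row of miR-138 was analysed here) were above 0 in all 20 libraries. Day 1 replicate 2 was the library least like the others, with a median Spearman correlation of 0.891 to the other 19 libraries across miRNAs, and it was also the shallowest. The next was day 60 replicate 3, at 0.916. The day 1 means, the counts of miRNAs that passed against day 1 and the arm ratio of miR-9 are given with and without day 1 replicate 2 below. For calls of other single miRNAs, the number of fits that kept the call with each library left out is given.

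miR-9-5p was the most abundant miRNA of the table, at 174740 ± 65703 RPM (SD, n = 20), or 17.5% of the miRNA reads. miR-9-3p, at 2013 ± 942 RPM, ranked 49 of 683. In 13 libraries miR-9-5p was the miRNA with the most reads. In the 7 others it ranked between 2 and 4, behind miR-7-5p in 3 of them (day 60 replicates 1 and 4 and day 180 replicate 4), behind miR-143-3p in 3 (day 1 replicate 5, day 60 replicate 3 and day 180 replicate 1) and behind let-7a-5p in day 180 replicate 3. miR-9-3p ranked between 31 and 90.

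On day 1, miR-9-5p had 273587, 119879, 318675, 234326 and 177817 RPM in replicates 1 to 5. On day 60 it had 174177, 155132, 62610, 84885 and 230007 RPM. These include the lowest value of the study, in day 60 replicate 3, and the day 1 values include the highest, in day 1 replicate 3. On day 120 it had 237562, 189885, 178048, 179538 and 192808 RPM. On day 180 it had 86152, 188588, 89787, 142132 and 179204 RPM. The ages overlapped in every pairing, whereas between 0.725% and 7.25% of the 414 tested miRNAs did not overlap in a given pairing, and the day 120 libraries lay within a 1.33-fold range, against 2.19-fold to 3.67-fold at the other ages.

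miR-9-3p had 1443, 1542, 2907, 960 and 1045 RPM on day 1. It had 3720, 1724, 872, 564 and 3418 RPM on day 60, which hold both the highest and the lowest value of the study. It had 2008, 3254, 3143, 2769 and 2255 RPM on day 120. It had 841, 2284, 1767, 1653 and 2087 RPM on day 180. These ages also overlapped in every pairing, although 22 of the 25 pairs of a day 120 and a day 1 library had the higher value on day 120.

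**Figure D1:**
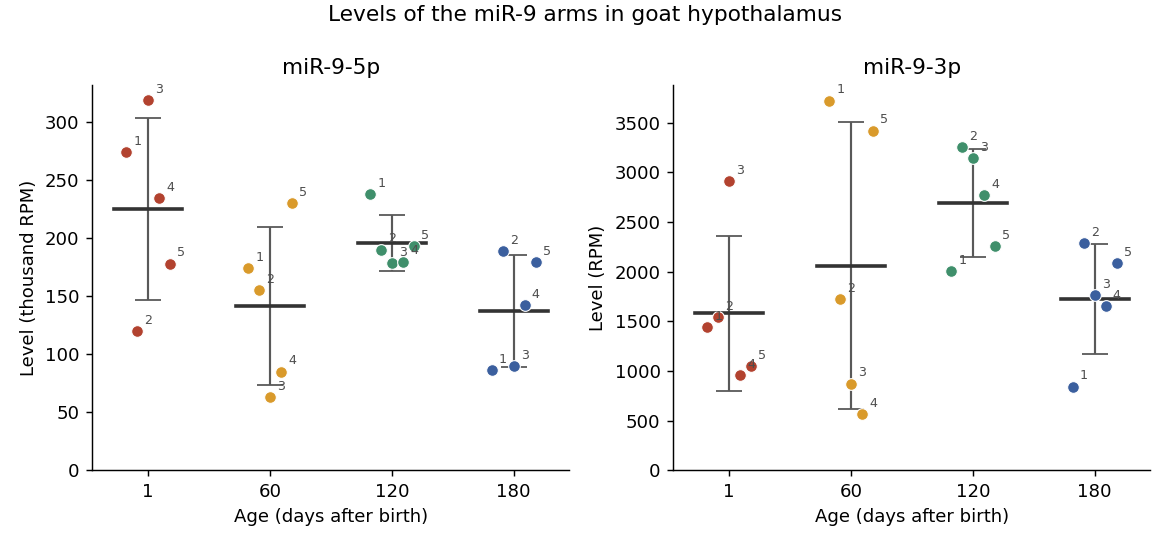
Level of miR-9-5p (left, axis in units of 1000 RPM) and miR-9-3p (right, RPM) against age. Points are the 5 libraries of an age and the bar marks the mean with its SD. The 5p arm was highest in a day 1 library (318675 RPM), the 3p arm in a day 60 library (3720 RPM), and the day 120 libraries lay closest together in both panels.

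By mean, the order for miR-9-5p was day 1 at 224857 ± 78261 RPM, day 120 at 195568 ± 24328 RPM, day 60 at 141362 ± 68037 RPM and day 180 at 137173 ± 48175 RPM (SD, n = 5 each). For miR-9-3p the order was day 120 at 2686 ± 544 RPM, day 60 at 2060 ± 1446 RPM, day 180 at 1726 ± 555 RPM and day 1 at 1579 ± 783 RPM. Day 1 was thus first for the 5p arm and last for the 3p arm. Without replicate 2 the day 1 means were 251101 ± 59788 RPM for 5p and 1588 ± 904 RPM for 3p (SD, n = 4). No neighbours in either order differed beyond their spread, and on the log scale the 5p means of days 180 and 60 stood the other way round, 0.03 log2 units apart.

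The levels were tested with limma on log2(RPM + 1) over the 414 miRNAs that reached 1 RPM in at least 5 libraries, with Benjamini-Hochberg adjustment over all of them. Neither arm passed an adjusted p of 0.05 in any of the 6 pairwise comparisons or in the F test over the 4 ages. Of all miRNAs tested, 3.86% passed for day 60 against day 1, 3.38% for day 120 against day 1 and 3.38% for day 180 against day 1. These counts were 16, 14 and 14 of 414, and 6, 8 and 6 of 414 without day 1 replicate 2. With limma, edgeR or DESeq2 no miRNA passed between days 60, 120 and 180; at an unadjusted limma p under 0.05 there were 13 (3.14%) on day 120 against day 60, 3 (0.725%) on day 180 against day 120 and 20 (4.83%) on day 180 against day 60. Against day 1 the unadjusted shares were 21% at day 60, 22.5% at day 120 and 20.8% at day 180. Across the 4 ages 1.93% passed. The comparisons with day 1 share its 5 libraries, so they are not independent of each other.

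The largest differences of miR-9-5p were both against day 1. Its log2 change was -0.74 (SE 0.37) on day 60 against day 1, with a 95% interval of -1.50 to 0.01 and a limma adjusted p of 0.250. It was -0.71 (SE 0.37) on day 180 against day 1, with an interval of -1.47 to 0.05 and a limma adjusted p of 0.288. These values correspond to levels 1.67-fold and 1.64-fold lower than on day 1, and the median change of all tested miRNAs was -0.04 and -0.25 in the same 2 comparisons. On day 120 against day 1 the change was -0.13, close to the median of all miRNAs at -0.12.

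The largest difference of miR-9-3p was a log2 change of 0.86 (SE 0.47) on day 120 against day 1, with a 95% interval of -0.11 to 1.83 and a limma adjusted p of 0.277. The exact permutation test over the 10 libraries gave p = 0.0317 for this comparison, and 0.119 when adjusted over the 6 pairwise comparisons. On day 180 against day 120 both arms were lower, by a log2 change of -0.58 for 5p and -0.69 for 3p. By limma the unadjusted p was 0.128 for 5p and 0.154 for 3p, with an adjusted p of 0.997 for each. The exact permutation p was 0.0397 for each arm, adjusted over 6 comparisons to 0.214 for 5p and 0.119 for 3p. The smallest p that 5 against 5 libraries allow is 0.00794.

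The spread between libraries of an age stood out for miR-9-3p at day 60 and, in RPM, for miR-9-5p at day 120. At day 60 the SD of log2(RPM + 1) was 0.775 for 5p and 1.195 for 3p, against a median of 0.721 over the 414 tested miRNAs. At day 120 it was 0.169 for 5p and 0.303 for 3p, against a median of 0.568. Of the 70 miRNAs with a mean above 1000 RPM, none had a smaller SD than miR-9-5p at day 120, and all 69 others had a smaller SD than miR-9-3p at day 60. Among the same 70, 48 had a smaller SD than miR-9-5p at day 60 and 10 a smaller SD than miR-9-3p at day 120. The narrowness of the day 120 values depended on the scale. With median-of-ratios scaling the day 120 mean of miR-9-5p was 195004 ± 63550, and that of miR-9-3p was 2548 ± 84.9, so that the wider arm became the narrower.

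Because RPM divides by a total of which miR-9-5p is a large part, the other abundant miRNAs move its value. miR-7-5p, a miRNA of neuroendocrine cells, averaged 6.52% ± 4.34 of the reads at day 1, 12.6% ± 8.53 at day 60, 4.65% ± 2.23 at day 120 and 9.67% ± 12.2 at day 180 (SD, n = 5 each). In day 180 replicate 4 alone it took 304600 RPM. miR-143-3p, a miRNA of smooth muscle, had age means between 5.17% and 7.96%, with a highest library value of 20.9% in day 1 replicate 5. Scaled to the reads of all other miRNAs in place of all reads, miR-9-5p averaged 300578 at day 1, 170560 at day 60, 244057 at day 120 and 161870 at day 180, the same order of ages as in RPM. This value rises with the RPM value by construction, so the order of the libraries was fixed in advance. miR-7-5p and miR-143-3p also stay in its total. With median-of-ratios scaling the means were 225642 at day 1, 133201 at day 60, 195004 at day 120 and 150711 at day 180. Day 180 then stood above day 60. The part of these miRNAs in the level of miR-9-5p was not tested beyond the scalings named in the closing section.

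**Figure D2:**
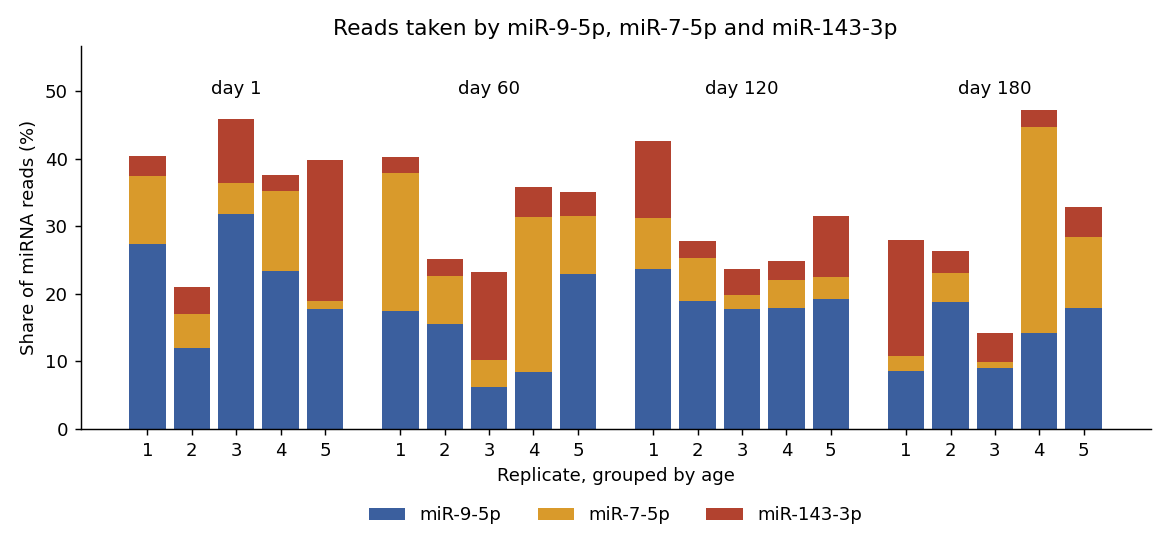
Share of all miRNA reads (%) taken by miR-9-5p, miR-7-5p and miR-143-3p in each of the 20 libraries, grouped by age and stacked from 0. miR-9-5p took between 6.26% (day 60 replicate 3) and 31.9% (day 1 replicate 3), and miR-7-5p was the widest block in day 180 replicate 4.

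The arm ratio, 5p RPM over 3p RPM, is free of the library total because both arms are divided by it. It was 190, 77.7, 110, 244 and 170 in day 1 replicates 1 to 5. It was 46.8, 90.0, 71.8, 151 and 67.3 on day 60. Apart from replicate 2, the day 1 libraries had ratios of 110 to 244, whereas on day 60 replicate 4 alone lay in that range. On day 120 the ratio was 118, 58.4, 56.6, 64.8 and 85.5. On day 180 it was 102, 82.6, 50.8, 86.0 and 85.9. The mean ratio was 158 ± 65.9 at day 1, 85.3 ± 39.6 at day 60, 76.7 ± 25.9 at day 120 and 81.5 ± 18.8 at day 180 (SD, n = 5 each), so the later ages had similar means and day 1 stood above them, with libraries of all ages overlapping. Of the 120 miRNAs with both arms tested, 5%, 10.8% and 6.67% had ratios on days 60, 120 and 180 that did not overlap those of day 1. Between the later ages this share was 0% to 2.5%.

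Put as a share, the 3p arm was 0.408% of the reads of both arms in day 1 replicate 4 (Wilson 95% interval 0.399% to 0.417%) and 2.09% in day 60 replicate 1 (2.07% to 2.12%), the extremes of the study. These intervals cover counting error only, and the difference between libraries of an age was far wider. The 3p arm was counted in at least 3523 reads per library and the 5p arm in at least 272567.

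**Figure D3:**
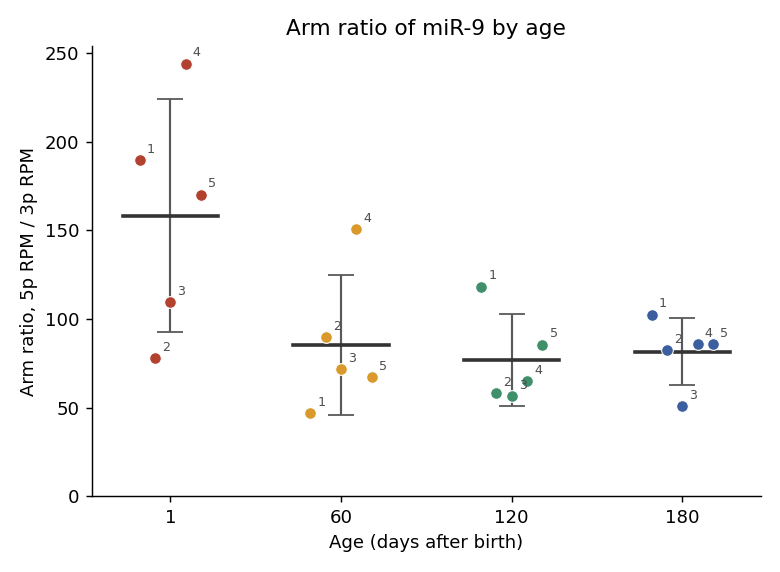
Arm ratio of miR-9 (5p RPM divided by 3p RPM, linear axis from 0) against age. Points are libraries and the bar marks the mean with its SD of the 5 libraries. The day 1 mean of 158 lies above the means of 85.3, 76.7 and 81.5, and day 1 replicate 2, at 77.7, lies among the later libraries.

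The log2 arm ratio was tested with limma over the 120 miRNAs of which both arms passed the filter on low values, adjusted over those 120. On day 60 against day 1 the log2 difference was -0.89 (SE 0.38), a ratio 1.85-fold lower, with a 95% interval of -1.68 to -0.10, an unadjusted p of 0.0281 and an adjusted p of 0.0990 by limma. On day 120 against day 1 it was -0.99 (SE 0.38), a ratio 1.99-fold lower, with an interval of -1.78 to -0.20, an unadjusted p of 0.0157 and an adjusted p of 0.0985 by limma. On day 180 against day 1 it was -0.88 (SE 0.38), a ratio 1.84-fold lower, with an interval of -1.67 to -0.09, an unadjusted p of 0.0297 and an adjusted p of 0.149 by limma. None passed the threshold with all libraries. Between days 60, 120 and 180 the differences were at most 0.11 in size, with SE 0.38. The F test over the 4 ages gave an adjusted p of 0.185 by limma.

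The arm ratio moved in many miRNAs, which is the background for these values. Of the 120 pairs, 24.2% passed for day 60 against day 1, 11.7% with a higher and 12.5% with a lower ratio on day 60. This count of 29 pairs depended on single libraries: it was 13, 11 and 19 without day 1 replicate 2, 3 or 5, and 7, 5 and 5 without day 60 replicate 2, 3 or 4. For day 120 against day 1, 6.67% passed, 2.5% higher and 4.17% lower, and for day 180 against day 1, 9.17% passed, 2.5% higher and 6.67% lower. Over the 4 ages 8.33% passed. With each library left out in turn the counts ran from 8 to 15 pairs for day 120 against day 1, from 1 (without day 180 replicate 5) to 13 for day 180 against day 1 and from 5 to 19 (without day 60 replicate 5) over the 4 ages. An unadjusted limma p under 0.05, which miR-9 had in all 3 comparisons with day 1, was reached by 33.3% of pairs at day 60, 29.2% at day 120 and 24.2% at day 180. Between the later ages no pair passed, and the unadjusted counts were 7 (5.83%) on day 120 against day 60, 0 on day 180 against day 120 and 3 (2.5%) on day 180 against day 60. Differences below 0 and larger than that of miR-9 were seen in 22, 17 and 23 pairs in the 3 comparisons with day 1, called or not. A day 1 mean above the means of all later ages, as in miR-9, was seen in 43 of the 120 pairs, and one below them in 49. A ratio lower than on day 1 was thus common among the pairs.

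The calls of the miR-9 ratio turned on day 1 replicate 2. Without it, the day 1 ratio was 178 ± 55.5 (SD, n = 4). The log2 difference was then -1.12 on day 60 against day 1 (limma adjusted p = 0.0494; 10.8% of pairs passed), -1.22 on day 120 against day 1 (limma adjusted p = 0.0281; 12.5% of pairs passed) and -1.11 on day 180 against day 1 (limma adjusted p = 0.0686; 6.67% of pairs passed). With all libraries the exact permutation test gave p = 0.0635, 0.0397 and 0.0556 in the same order, each 0.127 when adjusted over 6 comparisons. Day 1 replicate 2 also had the highest summed marker levels of its age for pituitary and epithelium, at 1432 RPM against a day 1 median of 156 RPM, for multiciliated cells and choroid plexus, at 8527 RPM against 2950 RPM, and for astrocytes, at 1832 RPM against 860 RPM; their part in its arm ratio was not tested. In 22, 22 and 21 of the 25 pairs of libraries the later animal had the lower ratio.

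The 5p arm exceeded the 3p arm by at least 46.8 times in every library. The geometric mean ratio of miR-9 over 20 libraries was 90.6, a log2 ratio of 6.50, and 19 of the 120 pairs were more strongly weighted to 5p. In 64 pairs the 5p arm was the higher and in 56 the 3p arm. The lower arm of miR-9, at 2013 RPM, was more abundant than the lower arm of any other tested pair, the next being that of miR-423 at 1120 RPM. The SD of the log2 ratio of miR-9 over the libraries was 0.644, against a median of 0.841 over the pairs.

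**Figure D4:**
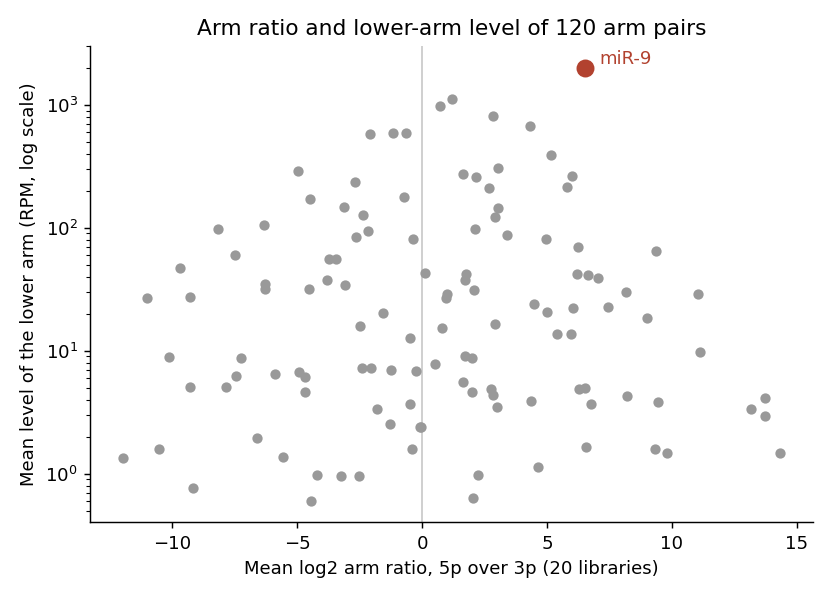
Mean level of the lower arm (RPM, log axis) against the mean log2 ratio of 5p over 3p for the 120 tested arm pairs, each point 1 miRNA over 20 libraries. miR-9, in red, has the highest lower arm, at 2013 RPM, at a log2 ratio of 6.50.

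The 5 pairs nearest to miR-9 in mean log2 ratio were miR-532 (6.66), miR-450 (6.55), miR-154b (6.51), miR-93 (6.29) and let-7e (6.25). Their lower arms averaged between 1.65 and 70.3 RPM, so that a like ratio went with a far scarcer minor strand. The log2 ratio of chi-miR-532 rose by 1.54 on day 60 against day 1 (limma adjusted p = 0.0421) and by 1.90 on day 180 against day 1 (limma adjusted p = 0.0330), comparisons in which the differences of miR-9 were below 0. With each library left out in turn these calls held in 12 and 15 of 20 fits. The other 4 did not pass in any comparison with day 1.

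Across the 20 libraries the log2 levels of the arms were correlated, with Pearson's r of 0.585 (permutation p = 0.00677, adjusted over 4 relations to 0.0135) and Spearman's rho of 0.469 (permutation p = 0.0382, adjusted to 0.0764). With the mean of each age subtracted, r was 0.694 (permutation p = 0.00058). Without day 60 replicate 4 and day 180 replicate 1, the libraries farthest from the median of miR-9-3p, r was 0.404 (permutation p = 0.0976). The strength of the relation thus depended on those libraries. Both were low in both arms. With median-of-ratios scaling r was 0.485 (permutation p = 0.0303).

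miR-9-5p was also higher in deeper libraries, with r of 0.6004 against depth (permutation p = 0.00514, adjusted to 0.0135) and rho of 0.555 (permutation p = 0.0123, adjusted to 0.0492). Without the 2 libraries of most unusual depth, day 1 replicate 2 and day 60 replicate 3, r was 0.432 (permutation p = 0.0755), and with median-of-ratios scaling of all 20 it was 0.813 (permutation p = 2e-05). miR-9-3p had r of 0.132 with depth (permutation p = 0.581) and rho of 0.0977, and r was -0.102 without those 2 libraries and 0.399 with median-of-ratios scaling (permutation p = 0.0802). The log2 arm ratio had r of 0.415 with depth (permutation p = 0.0669, adjusted to 0.0893), rho of 0.423, and 0.584 with age means subtracted (permutation p = 0.00642). Without the same 2 libraries its r was 0.461 (permutation p = 0.0557). Mean depth was 7043505 ± 1756441 reads at day 1, 5940191 ± 890931 at day 60, 7492209 ± 952700 at day 120 and 7178227 ± 1035221 at day 180, and the part of depth in the differences between ages was not tested.

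**Figure D5:**
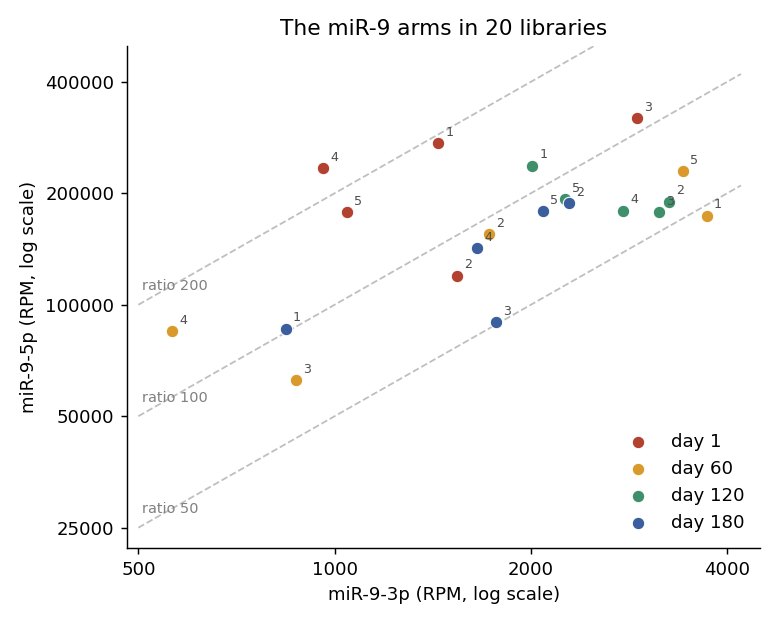
Level of miR-9-5p against that of miR-9-3p (RPM, both axes log) in the 20 libraries, marked by age and numbered by replicate. Pearson's r over the 20 libraries was 0.585, and 4 of the 5 day 1 libraries had 5p over 3p ratios of 110 to 244.

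As a description of which miRNAs followed each arm, log2 levels were correlated over the 20 libraries with those of the 291 other miRNAs that averaged at least 10 RPM; the libraries share a common total, which by itself ties levels together. The closest to miR-9-5p were miR-30d-3p (r = 0.828), miR-103-3p (0.785), miR-380-5p (0.780), miR-374b-3p (0.767) and the numbered prediction novel_90 (0.757). The most opposed were miR-423-5p (-0.767), miR-671-3p (-0.761), miR-204-5p (-0.757), miR-3432-5p (-0.736) and let-7b-5p (-0.729). miR-204-5p is abundant in choroid plexus. These values depended on the scale. With median-of-ratios scaling the 5 closest had r of 0.867, 0.783, 0.785, 0.784 and 0.583 in the order named. The 5 most opposed then had r between -0.661 and -0.548.

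The closest to miR-9-3p were miR-30b-5p (0.897), miR-126-5p of endothelium (0.892), miR-20a-5p of the miR-17-92 cluster (0.873), miR-186-5p (0.872) and miR-140-5p (0.851). The most opposed were miR-1468-5p (-0.700), miR-28-3p (-0.676), miR-671-3p (-0.629), the numbered prediction novel_1105 (-0.562) and miR-125a-3p (-0.541). With median-of-ratios scaling the 5 closest to miR-9-3p had r between 0.804 and 0.900. The 5 most opposed then had r of -0.612, -0.528, -0.807, -0.520 and -0.807 in the order named, so their order changed. In RPM, none of the 5 closest was shared between the arms. The other arm ranked 29 in likeness to miR-9-5p and 62 in likeness to miR-9-3p, behind many miRNAs from other loci.

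miRNAs that act with miR-9 in neuronal differentiation were represented by 10 rows of miR-124, miR-128, miR-137, miR-218, miR-129, miR-153 and miR-7, all tested; miR-132, miR-212 and miR-138 were not analysed here. None passed in any of the 6 comparisons, for which the backgrounds are given above; with each library left out in turn, the only call among them was miR-129-3p on day 180 against day 1 without day 1 replicate 5 (limma adjusted p = 0.0404). Their median log2 change was -0.33 on day 60 against day 1, -0.02 on day 120 against day 1 and -0.24 on day 180 against day 1, beside medians of -0.04, -0.12 and -0.25 over all miRNAs. miR-124a, the most neuron-restricted of them, averaged 968 ± 428 RPM at day 1, 706 ± 566 at day 60, 1189 ± 648 at day 120 and 720 ± 414 at day 180 (SD, n = 5 each). miR-128-3p, another neuronal miRNA, averaged 13816 ± 10737, 16929 ± 6732, 24099 ± 16228 and 11052 ± 6328 RPM at those ages. Both had their highest mean on day 120, within a wide spread, as did miR-137, miR-7-3p and miR-128-5p. The list had no common peak: miR-129-5p, miR-129-3p, miR-218 and miR-153 had their highest mean on day 1, and miR-7-5p on day 60.

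Of the miRNAs of neural progenitors, the miR-17-92 cluster with its paralogs and the miR-130 and miR-301 family, 26 rows were in the table and 21 were tested. chi-miR-363-3p, of the miR-106a-363 cluster, fell by 1.76 on the log2 scale on day 60 against day 1, by 1.80 on day 120 against day 1 and by 2.53 on day 180 against day 1 (limma adjusted p = 0.0188, 0.0150 and 0.000465). chi-miR-130b-3p fell by 1.81 on day 180 against day 1 (limma adjusted p = 0.0395). With each library left out in turn, chi-miR-363-3p kept its calls in all 20 fits on days 120 and 180, and on day 60 in all but those without day 1 replicate 3 or day 60 replicate 4, where the highest adjusted p was 0.0751, while chi-miR-130b-3p kept its call in 13 of 20. Of all miRNAs tested, 3.14%, 1.93% and 2.66% passed the adjusted threshold with a lower level on days 60, 120 and 180 than on day 1. The rest of the list did not pass with all libraries. Over all 21 tested members the medians were -0.29, -0.29 and -0.28 against day 1 on days 60, 120 and 180. The medians over all miRNAs were -0.04, -0.12 and -0.25, so the day 180 median of the list was near that of all miRNAs.

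The let-7 and miR-125 families, which accumulate as neural tissue matures, had 22 rows, of which 21 were tested. chi-let-7c-5p and chi-let-7c-3p rose on day 60 against day 1, with log2 changes of 1.46 and 1.63 (limma adjusted p = 0.0494 and 0.0399). chi-let-7f-3p rose on day 120 and on day 180 against day 1, with log2 changes of 1.44 and 1.403 (limma adjusted p = 0.0354 and 0.0424), at means of 1.50 RPM on day 1, 5.62 RPM on day 120 and 5.28 RPM on day 180. Of all miRNAs tested, 0.725%, 1.45% and 0.725% passed the adjusted threshold with a higher level on days 60, 120 and 180 than on day 1. The list's medians were 0.77, 0.42 and 0.53 on days 60, 120 and 180 against day 1. By mean, the miR-125 rows did not rise from day 1 to day 180. miR-125b-5p averaged 20523 ± 25032 RPM at day 1 and 13208 ± 7695 at day 180, and miR-125a-5p 11598 ± 12394 and 7137 ± 4369. miR-125b-3p averaged 788 and 682 RPM, and miR-125a-3p 34.5 and 25.3 RPM. In the let-7 family, miR-98-5p was also lower by mean, at 2738 RPM on day 1 and 1576 RPM on day 180. So were let-7e-3p (95.1 and 57.1 RPM), let-7i-3p (6.39 and 3.31 RPM) and let-7g-3p, which was not tested (3.02 and 0.519 RPM). On the log2 scale, 15 of the 21 tested rows of the list had a change above 0 on day 180 against day 1. With each library left out in turn, chi-let-7c-5p kept its call in 5 of 20 fits, chi-let-7c-3p in 11, and chi-let-7f-3p in 15 on day 120 and in 7 on day 180, so most of these calls rest on the full set of libraries. Members of let-7 can share reads, so the split among them is uncertain.

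Markers of the cell types of the region gave summed levels that also differed between libraries. The neuronal list of 7 rows summed to 29221 ± 19585 RPM at day 1, 28004 ± 13163 at day 60, 37006 ± 24855 at day 120 and 23376 ± 6506 at day 180 (SD, n = 5 each). The astrocyte list of 5 miR-29 rows averaged 1051 ± 501, 1255 ± 660, 1881 ± 548 and 1572 ± 657 RPM at those ages. The oligodendrocyte list of 3 rows of miR-219 and miR-338 averaged 1660 ± 877, 2918 ± 1082, 2864 ± 1723 and 3488 ± 2515 RPM. Both glial sums had their lowest mean on day 1, the age with the highest miR-9 arm ratio, with libraries that overlapped the later ages. The sums were carried by miR-29a-3p and miR-338-5p, and not all members followed them. miR-219, an oligodendrocyte miRNA, averaged 58.7 RPM at day 1, 14.9 at day 60, 12.6 at day 120 and 15.4 at day 180, and miR-29c-5p averaged 103, 39.0, 62.6 and 58.6 RPM at those ages, both highest at day 1. miR-338-3p averaged 240, 227, 302 and 449 RPM. The part of these cell types in the miR-9 values was not tested.

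The vessel and smooth muscle list of 6 rows averaged 89483 ± 79053 RPM at day 1, 60131 ± 44319 at day 60, 69631 ± 41727 at day 120 and 72165 ± 61609 at day 180. Its highest libraries, day 1 replicate 5, day 60 replicate 3, day 120 replicate 1 and day 180 replicate 1, include 3 of the 7 in which miR-9-5p was not first; miR-143-3p, which was first in those 3, belongs to the list. The multiciliated and choroid plexus list of 11 rows averaged between 4161 and 6708 RPM. Its highest library, day 60 replicate 3, at 11306 RPM, was the library with the lowest miR-9-5p. This sum was carried by miR-204-5p, at 3105 RPM on day 1 and 6429 RPM on day 60. The multiciliated rows miR-34c-5p, miR-34b-3p and miR-449a-5p went the other way. They averaged 1268 ± 1670, 268 ± 330 and 19.5 ± 17.7 RPM at day 1, and 114, 98.6 and 1.37 RPM at day 60. The microglia and immune list averaged 1445 to 3092 RPM, the erythroid list 204 to 622 RPM, the pituitary and epithelium list 112 to 407 RPM, the muscle list 1029 to 1877 RPM, the liver list 885 to 1467 RPM and the posterior HOX list 139 to 382 RPM. Rows at 0 in some libraries were 2 of 4 in the erythroid list, 5 of 11 in the choroid plexus list, 2 of 5 in the muscle list, 1 of 4 in the liver list and 4 of 6 in the posterior HOX list. The part of these tissues in the miR-9 values was not tested.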

How the data were processed

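Total RNA was extracted with Trizol and made into small RNA libraries with a NEBNext kit, per the labels' protocols. The submitters' processing notes name Bowtie, with its version, the genome build, the miRNA catalogue and the counter not given in the sources used here. RPM is the unit of the 1 table deposited by the authors: its headers say TPM, but values are not divided by length, and 100% of values below 1000 reads are whole multiples of 1 step (tolerance 0.1 read), so whole reads were recovered, and depth is the total that 1 step implies. A further column deposited by the authors, headed "all" and recorded as a score, is the row sum and was only checked.

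limma 3.58.1 (R 4.3.3; eBayes with trend, two-sided) was fitted to log2(RPM + 1) of miRNAs at 1 RPM or more in at least 5 libraries, and to the log2 arm ratio of pairs with both arms kept; all 20 libraries shared 1 fit with 4 age means. The fold changes understate changes of low miRNAs. edgeR 4.0.16 and DESeq2 1.42.0 on recovered reads were alternatives, as were exact permutation tests (100000 resamples over 4 ages and for correlations). The scripts were tested on simulated data. Members, lists and tests were chosen with earlier results of these data known. Named miRNAs are the members, the lists, the 5 most and least alike by correlation, the most abundant, and the 5 nearest arm pairs; miR-423 (lower arm) was named after its value was seen. No 2 libraries of an age agreed within sampling noise (smallest chi-square per degree of freedom 357 over 40 pairs). No sequence of miR-9 was used here, so miRNAs sharing its seed were not analysed.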

Additional observations from a re-analysis of the deposited data

Results flagged for a closer look

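The miR-9-5p level of day 120 replicate 1, 237562 RPM, lay far from the other 4 libraries of its age, which held 178048 to 192808 RPM: its gap to the nearest was 0.752 of the range of the group, above the critical 0.710 for 5 samples. Chance marks about 1 in 20 groups in this way, and 12 groups were checked.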

How the results depend on the processing

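No change of either arm alone passed an adjusted p of 0.05 under any setting tried (35 for each pairwise comparison). The arm ratio passed on days 60 and 120 against day 1 without day 1 replicate 2. For day 120 against day 1 it also passed without the 2 libraries least like the rest (-1.22, limma adjusted p = 0.0374), a setting chosen after seeing the data. With all libraries the 4-age permutation test gave an unadjusted p of 0.0359 for a largest difference of 0.99. The limma F test gave an adjusted p of 0.185. Leaving out each library in turn, the ratio changed by -1.12 to -0.70 on day 60, by -1.22 to -0.81 on day 120 and by -1.11 to -0.70 on day 180, each against day 1, and by -0.29 to 0.13 on day 120 against day 60. Small changes turned sign: in the same exercise 3p on day 60 against day 1 ran from -0.16 to 0.52 (-0.0029 scaled to the reads other than miR-9-5p), 5p on day 120 against day 1 from -0.34 to 0.016, and on day 180 against day 60 5p from -0.22 to 0.25, 3p from -0.35 to 0.33 and the ratio from -0.18 to 0.24. On day 180 against day 60, edgeR on library size gave -0.043 for 5p and -0.25 for 3p, DESeq2 gave -0.0024 for 3p, scaling to the reads other than miR-9-5p, miR-7-5p and miR-143-3p (chosen after seeing the data) gave -0.00035 for 5p and -0.0106 for 3p, and leaving out the 2 least-like libraries gave -0.22, -0.20 and -0.024 for 5p, 3p and the ratio; the cause was not tested. The correlations became 0.404, 0.432 and -0.102 without 2 libraries, 0.584 with age means subtracted, and 0.485, 0.813 and 0.399 with median-of-ratios scaling, as given above.

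Replicate numbers are shared by the ages but mark different animals. Deviations from the age means were correlated between libraries of different ages. Same-numbered libraries had a median r of 0.0695 (30 pairs, r between -0.714 and 0.536, over 0.1 in 11). Libraries of other numbers had a median r of -0.0455 (120 pairs, r between -0.576 and 0.674, over 0.1 in 39). With the replicate number as a block, the ratio on day 120 against day 1 was -0.99 (limma adjusted p = 0.0786), and no call of either arm or the ratio changed. Counts over all features moved more. Outside the fits that leave out 1 library, pairs called for day 60 against day 1 ran from 1 (only those ages fitted) to 30 (no filter), beside 29, for day 120 against day 1 from 4 to 16, beside 8, and for day 180 against day 1 from 1 to 10, beside 11, and over the 4 ages from 2 to 12, beside 10. For miRNA levels these ranges were 4 to 86 beside 16, 4 to 74 beside 14, 5 to 61 beside 14 and 5 to 90 beside 8, the highest with DESeq2; with 1 library left out they were 2 (without day 60 replicate 4) to 43, 7 to 29, 5 to 31 and 5 to 16. With 5 animals an age, a log2 change of miR-9-5p has an SE of 0.37. Each animal has 1 library, so variation between animals and between libraries cannot be told apart; either arm had at least 3523 reads in every library.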
